A study of Homo sapiens with 18 samples.

Results

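KKU-100, a human cholangiocarcinoma cell line, was described at baseline by comparing its 3 control libraries with those of HuCCT1 and YSCCC, the other cholangiocarcinoma lines of the study. The libraries were chosen by their labels alone, as the shControl libraries of KKU-100, which are 3 of the 18 libraries in all and 3 of the 9 shControl libraries. All 9 came from cells that stably carried a control hairpin delivered by lentivirus, on a genotype given as WT, with 3 biological replicates per line. The remaining 9 libraries carried the hairpin shRNF213#2 against RNF213, again with 3 replicates per line, and were used here only as a second look at the same contrast. The labels give the tissue of KKU-100 as biliary tract, of HuCCT1 as bile duct and of YSCCC as liver. KKU-100 grew in Ham's F12 medium and both other lines in RPMI-1640, in each case with 10% FBS and 25 mM HEPES, so line and medium cannot be told apart in any difference given here. Each name stands for 1 cell line, and p-values measure the spread between replicate cultures of these lines, not between tumours.

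The 9 libraries of polyadenylated RNA held 21056732 to 24967367 counts over 36601 gene IDs, and mitochondrial transcripts took 1.61% to 2.70% of them. Levels are given as CPM, counts scaled to 1000000 of the TMM-scaled library total, for replicates 1, 2 and 3 in this order, and CPM is not scaled to gene length, so it compares libraries for 1 gene and not genes with each other. Log2 CPM correlated across genes at 0.982 to 0.990 between KKU-100 replicates and at 0.783 to 0.827 between libraries of different lines, as a description over genes that are not independent. Some libraries stood apart within their line: HuCCT1 replicate 2 in interferon-stimulated genes, YSCCC replicate 3 in stress and cell cycle genes, and KKU-100 replicate 1 in cell cycle genes, with their values beside those groups. RNF213, the gene targeted in the other arm, stood at 1259, 1003 and 1227 CPM in the KKU-100 shControl libraries and at 567, 650.4 and 556 CPM in the KKU-100 shRNF213 libraries, which do not overlap. The control level of RNF213 was 394, 1260.4 and 430 CPM in HuCCT1 and 430, 381 and 529 CPM in YSCCC, and it did not mark KKU-100 (adjusted p = 0.128 against HuCCT1).

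Cholangiocytes, the epithelial cells that line bile ducts, are held together by E-cadherin, claudins and desmosomes, and carry the keratins KRT7, KRT8, KRT18 and KRT19 and the surface protein EPCAM. This junction program is kept on by epithelial transcription factors such as GRHL2 and OVOL2 and by the splicing factors ESRP1 and ESRP2, and it is repressed by the zinc-finger factors ZEB1 and ZEB2, which bind E-box elements in epithelial promoters. Carcinoma cells that lose the first set and gain the second are said to have undergone an epithelial to mesenchymal transition, which can be partial.

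A gene was called a KKU-100 marker when it differed from HuCCT1 and from YSCCC in the same direction, each at an adjusted p below 0.05 in edgeR's quasi-likelihood test with Benjamini-Hochberg adjustment over all 18010 genes tested. By this rule 2704 genes (15.0% of those tested) were higher in KKU-100 than in both other lines, and 3131 (17.4%) were lower. The count was 1703 higher and 2512 lower when a difference of at least 2-fold from each line was also asked for. Of the 5835 markers, 5515 had no overlap between the 3 KKU-100 and the 6 other libraries. Markers were called from these same libraries, so the lack of overlap follows in large part from the rule and adds no support. The same rule gave 5217 markers of HuCCT1 and 5598 of YSCCC, so marker genes in number were not particular to KKU-100. Over all genes tested the median difference was -0.06 on the log2 scale, taken here and below as KKU-100 minus the mean of both other lines with equal weight per line.

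The genes that marked KKU-100 most clearly were nearly silent elsewhere or nearly silent in it. They were ranked by the smaller of their 2 log2 differences, which favours such genes. Among the 20 leading higher genes, RSPO3, a secreted amplifier of Wnt signalling, stood at 489.7, 269.6 and 496 CPM in KKU-100, 0 CPM in every HuCCT1 library and 0.0408, 0.0379 and 0.0359 CPM in YSCCC. It was at least 9728-fold higher than in HuCCT1 (adjusted p = 2.01e-07) and higher than in YSCCC (adjusted p = 1.68e-07). CLMP, an adhesion molecule of tight junctions, stood at 509.6, 568 and 831 CPM in KKU-100, 0.205, 0.141 and 0.0829 CPM in HuCCT1 and 0.612, 0.303 and 0.287 CPM in YSCCC. CLMP was 4446-fold higher than in HuCCT1 and 1588-fold higher than in YSCCC (adjusted p = 4.41e-08 against HuCCT1 and 3.96e-08 against YSCCC). No library of another line reached 1 CPM for these genes. P4HA3, a collagen prolyl hydroxylase subunit, stood at 919.9, 886 and 1048 CPM in KKU-100, 0.657, 0.235 and 0.249 CPM in HuCCT1 and 0.652, 0.721 and 0.215 CPM in YSCCC. That was 2501-fold higher than in HuCCT1 and 1797-fold higher than in YSCCC (adjusted p = 1.28e-07 against HuCCT1 and 1.03e-07 against YSCCC). Others of the 20 were the cyclic nucleotide phosphodiesterase PDE10A, the granin SCG2, the matrix protein VTN, the transporter SLC47A1, the matrix protease ADAMTS10, the potassium channel subunit KCNE4, CCDC170 and SIRPG-AS1. SIRPG-AS1 is antisense to another gene, and its reads are not assigned with certainty, because no source used here states whether counting kept the strand. VTN, which encodes vitronectin, varied most between the KKU-100 replicates among these 20, at 1073, 158 and 1040.1 CPM in KKU-100, and its 3 values were still above the 0.369, 0.329 and 0.415 CPM in HuCCT1 and 1.59, 1.56 and 0.717 CPM in YSCCC.

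Among the 20 leading lower genes, STK11, the kinase LKB1 that activates AMPK, had 0 CPM in every KKU-100 library, 80.5, 82.7 and 77.9 CPM in HuCCT1 and 52.1, 55.3 and 52.0 CPM in YSCCC. It was at least 1663-fold lower than in HuCCT1 (adjusted p = 5.83e-08) and at least 1099-fold lower than in YSCCC (adjusted p = 4.45e-08). MACC1, a regulator of the MET receptor gene, had 0 CPM in every KKU-100 library, 73.6, 144 and 122 CPM in HuCCT1 and 61.5, 52.7 and 43.6 CPM in YSCCC. MACC1 was at least 2344-fold lower than in HuCCT1 and at least 1088-fold lower than in YSCCC (adjusted p = 5.76e-07 against HuCCT1 and 8.16e-07 against YSCCC). PRMT6, an arginine methyltransferase of histones, had 0 CPM in every KKU-100 library, 22.7, 31.1 and 31.1 CPM in HuCCT1 and 46.8, 38.5 and 27.8 CPM in YSCCC. PRMT6 was at least 585-fold lower than in HuCCT1 and at least 779.9-fold lower than in YSCCC (adjusted p = 9.26e-07 against HuCCT1 and 6.51e-07 against YSCCC). For all 3 genes no KKU-100 library held a single count, while each of the 6 other libraries held many counts. The remaining lower genes included LAD1 of the basement membrane zone, the membrane proteins PROM2 and ADGRF1, the glycosyltransferase GALNT6, the protease inhibitor CST6, the RAB family member RASEF, ZNF608 and MIR205HG, the host transcript of miR-205. ARHGEF5 and the histone variant gene H2AFJ were also at 0 counts in KKU-100, but each has near-identical relatives that counting could split, so they are reported as uncertain.

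The epithelial junction program was lower in KKU-100 almost as a whole. Of 34 tested genes of this list, 28 were lower than in both other lines and 0 were higher, with a median log2 difference of -4.81 (-4.70 with genes at 0 set to their bound), beside -0.06 for all genes. Without any 1 library the count of lower genes stayed between 26 and 28. CDH1, which encodes E-cadherin, stood at 0.784, 1.26 and 4.92 CPM in KKU-100, 156, 441 and 241 CPM in HuCCT1 and 1458, 1329 and 877 CPM in YSCCC. It was lower than in HuCCT1 by a log2 fold change of -6.90 (SE 0.71, adjusted p = 2.17e-05) and lower than in YSCCC by a log2 fold change of -9.03 (SE 0.77, adjusted p = 6.16e-06). EPCAM, a surface protein of most epithelia, stood at 0 CPM in every KKU-100 library, 329, 364 and 321 CPM in HuCCT1 and 333, 282 and 193 CPM in YSCCC. EPCAM was at least 6990.2-fold lower than in HuCCT1 and at least 5572-fold lower than in YSCCC (adjusted p = 1.56e-07 against HuCCT1 and 1.33e-07 against YSCCC). GRHL2, a transcription factor that keeps epithelial genes on, stood at 0 CPM in every KKU-100 library, 94.5, 106 and 127 CPM in HuCCT1 and 110.3, 114 and 51.4 CPM in YSCCC. GRHL2 was at least 2263-fold lower than in HuCCT1 and at least 1903-fold lower than in YSCCC (adjusted p = 1.22e-06 against HuCCT1 and 1.13e-06 against YSCCC). Every KKU-100 library lay below every other library for these genes. In these bulk libraries, fewer cells that express a gene and less RNA per cell cannot be told apart.

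Both the regulators and the structural proteins of the junction were among the lower genes. ESRP2, which directs epithelial splicing, stood at 0.209, 0.495 and 0.386 CPM in KKU-100, 56.2, 72.3 and 52.6 CPM in HuCCT1 and 164, 159 and 81.6 CPM in YSCCC. ESRP2 was lower than in HuCCT1 by a log2 fold change of -7.33 (SE 0.40, adjusted p = 3.47e-07) and lower than in YSCCC by a log2 fold change of -8.49 (SE 0.41, adjusted p = 1.55e-07). OVOL2, a repressor of mesenchymal genes, stood at 0.157, 0.315 and 0.0966 CPM in KKU-100, 10.8, 9.41 and 12.3 CPM in HuCCT1 and 10.3, 6.64 and 4.05 CPM in YSCCC. Among tight junction genes, CLDN7 stood at 0.104, 0 and 0.0483 CPM in KKU-100, 228, 315 and 222 CPM in HuCCT1 and 212, 184 and 297 CPM in YSCCC. Another claudin gene, CLDN4, was 268-fold lower than in HuCCT1 and 465-fold lower than in YSCCC. OCLN, which encodes occludin, was 19.9-fold lower than in HuCCT1 and 30.1-fold lower than in YSCCC. OCLN thus differed by smaller factors than CLDN4 and ESRP2. Desmosomal genes were lower by smaller factors: DSP, which encodes desmoplakin, stood at 172, 69.9 and 104 CPM in KKU-100, 313, 521 and 395 CPM in HuCCT1 and 491, 364 and 354 CPM in YSCCC. DSP was 3.55-fold lower than in HuCCT1 and 3.50-fold lower than in YSCCC (adjusted p = 0.000746 against HuCCT1 and 0.000754 against YSCCC). DSG2, which encodes a desmoglein, was 6.02-fold lower than in HuCCT1 and 12.8-fold lower than in YSCCC, and JUP, which encodes plakoglobin, was 4.71-fold lower than in HuCCT1 and 5.85-fold lower than in YSCCC. The membrane protease ST14 and its inhibitor SPINT1 were also nearly absent, and again lay below all other libraries. ST14 stood at 0.209, 0.0450 and 0.0966 CPM in KKU-100, 303, 601 and 509 CPM in HuCCT1 and 415, 364 and 236 CPM in YSCCC. SPINT1 stood at 0.0522, 0.0901 and 0 CPM in KKU-100, 210.0, 256 and 224 CPM in HuCCT1 and 692, 630.4 and 729 CPM in YSCCC. The genes of this list that did not pass in both comparisons were CTNNA1, TJP1, CLDN1, SPINT2, CDH6 and CLDN3. CLDN1, a claudin, stood at 553, 370.2 and 404 CPM in KKU-100, 325, 318 and 219 CPM in HuCCT1 and 341, 252 and 353 CPM in YSCCC. The alpha-catenin gene CTNNA1 stood at 967, 542 and 596 CPM in KKU-100, 594, 703 and 746 CPM in HuCCT1 and 712, 627 and 704 CPM in YSCCC. So CLDN1 lay above every other library, and CTNNA1 overlapped them.

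**Figure D1:**
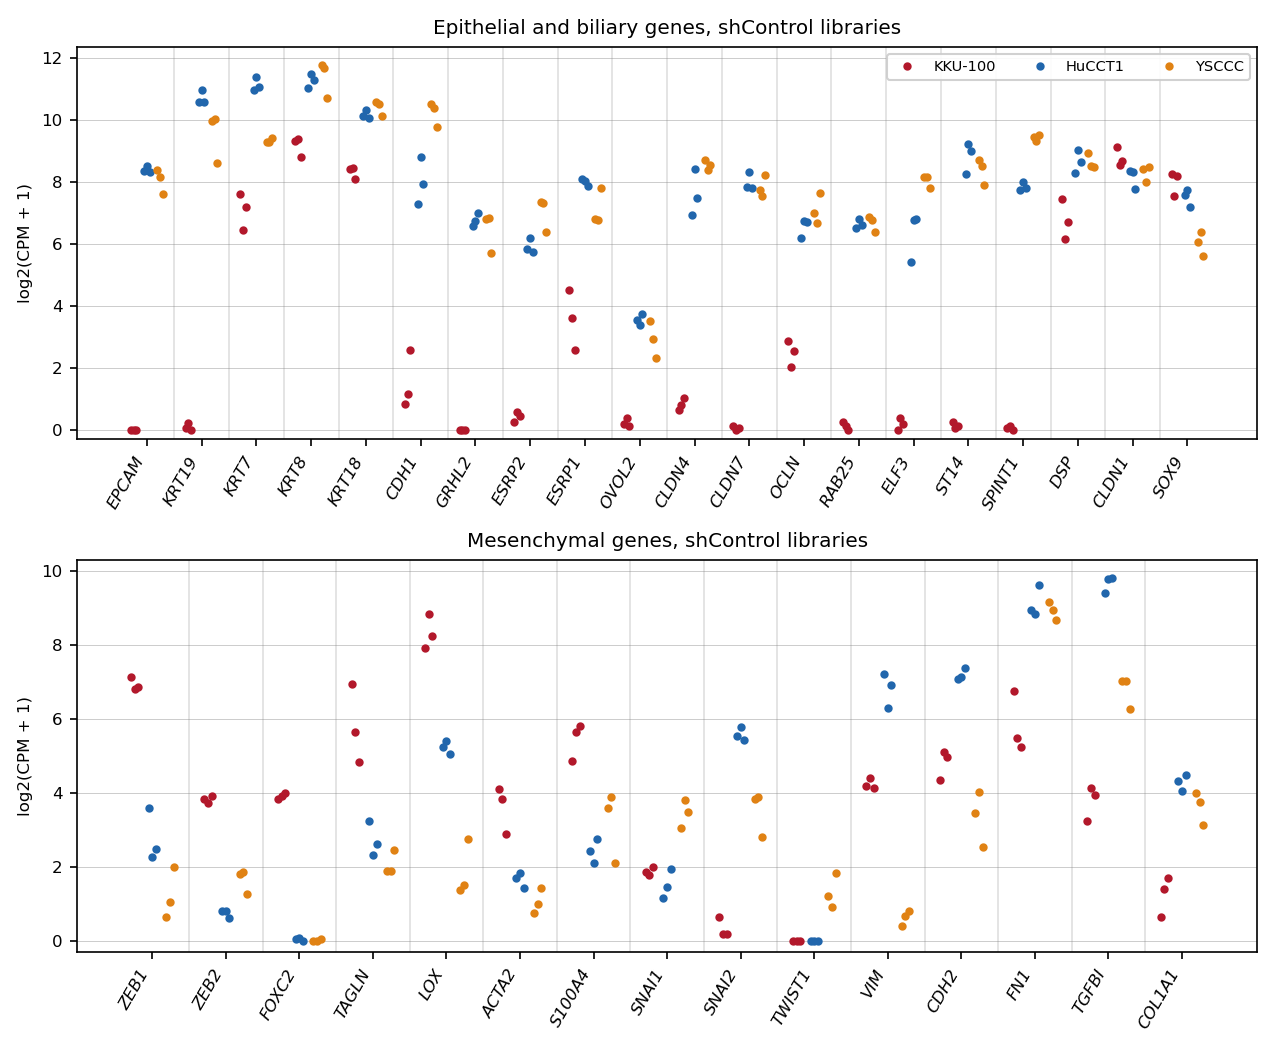
Levels of epithelial and biliary genes (top) and mesenchymal genes (bottom) as log2(CPM + 1) in the 9 shControl libraries, 1 point per library, with genes along the horizontal axis and colours for the lines. KKU-100 lies near 0 for EPCAM, KRT19, GRHL2, CLDN7, RAB25, ELF3, ST14 and SPINT1, keeps KRT7, KRT8, KRT18 and SOX9, and lies above both other lines for ZEB1, ZEB2, FOXC2 and LOX but between them for VIM and CDH2.

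The promoters of 3 of the lower epithelial genes are shown because each holds CACCTG, or its reverse complement CAGGTG, the E-box form that ZEB1 and SNAI2 are known to bind. The sequences are the 250 bases before the RefSeq gene start (GRCh38.p14), written 5′ to 3′ on the strand of the gene, with each match in capitals. For RAB25 the window is chr1:156060910-156061159, plus strand, with the match starting 41 bases upstream of the gene start. For ELF3 the window is chr1:202010337-202010586, plus strand, with the match starting 120 bases upstream of the gene start. For OCLN the window is chr5:69492297-69492546, plus strand, with the match starting 33 bases upstream of the gene start.
RAB25: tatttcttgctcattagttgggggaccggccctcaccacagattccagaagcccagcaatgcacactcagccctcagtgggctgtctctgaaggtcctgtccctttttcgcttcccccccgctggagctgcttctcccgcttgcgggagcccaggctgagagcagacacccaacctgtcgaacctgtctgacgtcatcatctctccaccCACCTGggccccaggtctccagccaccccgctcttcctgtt
ELF3: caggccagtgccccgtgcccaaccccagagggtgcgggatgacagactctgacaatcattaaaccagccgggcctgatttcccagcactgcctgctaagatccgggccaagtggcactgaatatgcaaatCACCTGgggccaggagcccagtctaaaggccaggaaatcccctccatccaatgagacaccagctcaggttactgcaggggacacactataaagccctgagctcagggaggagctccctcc
OCLN: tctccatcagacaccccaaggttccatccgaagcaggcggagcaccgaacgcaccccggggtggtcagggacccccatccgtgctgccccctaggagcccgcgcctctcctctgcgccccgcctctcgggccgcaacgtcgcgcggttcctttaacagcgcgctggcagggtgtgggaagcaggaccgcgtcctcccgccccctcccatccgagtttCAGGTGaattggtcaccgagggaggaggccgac
Searched on both strands, CACCTG was present in 4781 of the 27305 promoters of the same table when only these windows of 250 bases are read (17.5%), so a match by itself is common. RefSeq promoters were matched for 16 of the 28 lower junction genes, and 6 of the 16 held CACCTG. These are too few to compare the list with other genes, and a match shows letters, not binding.

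ELF3, an epithelial factor of the ETS family, stood at 0, 0.315 and 0.145 CPM in KKU-100, 41.3, 107 and 112 CPM in HuCCT1 and 285, 283 and 221 CPM in YSCCC. ELF3 was lower than in HuCCT1 by a log2 fold change of -9.04 (SE 0.63, adjusted p = 1.64e-06) and lower than in YSCCC by a log2 fold change of -10.64 (SE 0.65, adjusted p = 6.46e-07). RAB25, a small GTPase of epithelial vesicle traffic, stood at 0.209, 0.0901 and 0 CPM in KKU-100, 90.9, 110.0 and 96.7 CPM in HuCCT1 and 115, 109 and 82.9 CPM in YSCCC. RAB25 was 995-fold lower than in HuCCT1 and 1024-fold lower than in YSCCC (adjusted p = 1.28e-07 against HuCCT1 and 9.4e-08 against YSCCC). For both, the KKU-100 values come from at most a few counts per library. OCLN kept a low level of 6.32, 3.06 and 4.83 CPM in KKU-100 against 72.7, 107 and 104 CPM in HuCCT1 and 126, 101 and 200.5 CPM in YSCCC.

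Keratins and biliary genes split by gene. Of 19 tested keratins, 10 were lower in KKU-100 than in both other lines and 0 were higher, or 1 without KKU-100 replicate 2 or 3, with a median of -2.41. KRT19, the keratin most used to recognise cholangiocytes, was practically lost, at 0.0522, 0.180 and 0 CPM in KKU-100, 1526, 2005 and 1527 CPM in HuCCT1 and 1001, 1029 and 387 CPM in YSCCC. KRT19 was lower than in HuCCT1 by a log2 fold change of -14.27 (SE 0.70, adjusted p = 2.06e-07) and lower than in YSCCC by a log2 fold change of -13.20 (SE 0.69, adjusted p = 2.54e-07). The other keratins of simple epithelia were lower but present: KRT8 stood at 640.1, 666 and 442 CPM in KKU-100, 2065, 2867 and 2475 CPM in HuCCT1 and 3459, 3221 and 1649 CPM in YSCCC. KRT8 was 4.24-fold lower than in HuCCT1 and 4.77-fold lower than in YSCCC (adjusted p = 0.0002 against HuCCT1 and 0.000116 against YSCCC). Its partner KRT18 was 3.60-fold lower than in HuCCT1 and 4.29-fold lower than in YSCCC. KRT7 stood at 193, 87.1 and 144 CPM in KKU-100, 1968, 2643 and 2132 CPM in HuCCT1 and 616, 616 and 683 CPM in YSCCC. KRT7 was 15.9-fold lower than in HuCCT1 and 4.52-fold lower than in YSCCC. So KRT8, KRT18 and KRT7 were well expressed in KKU-100, although below both other lines. Scaled to length in the deposited TPM, the mean levels in KKU-100 were 744 for KRT18, 637 for KRT8 and 299.7 for KRT7. Of 19 tested genes of the biliary list, 7 were lower (36.8%) and 1 was higher (5.26%), or 2 without KKU-100 replicate 2, with a median of -2.13. For all genes tested the shares were 17.4% lower and 15.0% higher.

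SOX9, the transcription factor of the bile duct lineage, did not mark KKU-100, at 301, 187 and 290.3 CPM in KKU-100, 190.5, 214 and 145 CPM in HuCCT1 and 65.7, 81.7 and 48.0 CPM in YSCCC (adjusted p = 0.109 against HuCCT1 and 9.67e-05 against YSCCC). The higher biliary gene was SPP1, which encodes osteopontin, at 161, 527 and 547 CPM in KKU-100, 0.123, 0.0941 and 0 CPM in HuCCT1 and 64.8, 123 and 89.3 CPM in YSCCC. Lower biliary genes included CD24, which was 26.1-fold lower than in HuCCT1 and 70.4-fold lower than in YSCCC. Of the defining markers of bile duct epithelium, KRT7, KRT8, KRT18 and SOX9 were thus present in KKU-100, EPCAM and KRT19 were at or near 0, and CDH1 was low. Of the other cell types a culture could hold, the hepatocyte list had 2 higher (AFP and CEBPA) and 1 lower of 11 tested genes, with a summed level of 47.1 to 61.8 CPM in KKU-100, 299.7 to 342 CPM in HuCCT1 and 28.2 to 40.6 CPM in YSCCC. The count of higher genes was 1 without KKU-100 replicate 2, and of lower ones 2 without YSCCC replicate 2. APOA1 and TTR had 0 counts in KKU-100, and ALB stayed at or below 0.290 CPM. Of the stromal, endothelial and immune list, 2 were higher (ACTA2 and RGS5) and 5 lower of 15 tested, COL1A1 and LUM among them, with summed levels of 88.8 to 149.7 CPM in KKU-100, 74.7 to 135 CPM in HuCCT1 and 169.5 to 332 CPM in YSCCC. The shares were 13.3% higher and 33.3% lower in this list and 18.2% and 9.09% in the hepatocyte list. For all genes tested they were 15.0% and 17.4%. The stromal gene DCN stayed below 0.1 CPM in KKU-100, and the leukocyte genes PTPRC, CD3D and MS4A1 at no more than 2 counts per library. CD68 stood at 118, 55.7 and 79.9 CPM in KKU-100, 40.8, 102 and 60.1 CPM in HuCCT1 and 51.8, 57.6 and 66.0 CPM in YSCCC, without a difference in either comparison.

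Among genes of secretory and squamous epithelia, those that differed from both lines were lower. Of 15 tested mucin and trefoil genes, 7 were lower (46.7%, beside 17.4% of all genes) and 0 higher, with a median of -5.83 (-4.04 with genes at 0 set to their bound). MUC16, which carries the CA125 antigen, stood at 0.888, 0.135 and 0.579 CPM in KKU-100, 189.9, 290.5 and 109 CPM in HuCCT1 and 186, 173 and 77.7 CPM in YSCCC. MUC16 was 368-fold lower than in HuCCT1 and 273-fold lower than in YSCCC (adjusted p = 3.05e-06 against HuCCT1 and 3.83e-06 against YSCCC). MUC20, another transmembrane mucin, was 28.4-fold lower than in HuCCT1 and 197-fold lower than in YSCCC. MUC1 did not pass in both comparisons, at 14.6, 16.4 and 27.1 CPM in KKU-100, 23.0, 26.9 and 25.6 CPM in HuCCT1 and 423, 282 and 239 CPM in YSCCC. In the squamous and basal list 7 of 22 tested genes were lower (31.8%) and 0 higher, or 1 higher without KKU-100 replicate 2 or 3. SFN, which encodes stratifin, was 12.4-fold lower than in HuCCT1 and 14.3-fold lower than in YSCCC. TP63, the master factor of that lineage, lay between the lines at 7.26, 1.40 and 3.09 CPM in KKU-100, 0.452, 0.659 and 0.954 CPM in HuCCT1 and 96.4, 85.5 and 15.5 CPM in YSCCC.

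Mesenchymal genes did not move as 1 block. Of 21 tested, 7 were higher in KKU-100 than in both other lines (33.3%) and 5 were lower (23.8%), with a median log2 difference of 2.76. For all genes tested the shares were 15.0% higher and 17.4% lower. ZEB1 stood at 139.8, 111 and 117 CPM in KKU-100, 11.003, 3.81 and 4.56 CPM in HuCCT1 and 0.571, 1.06 and 2.98 CPM in YSCCC. ZEB1 was higher than in HuCCT1 by a log2 fold change of 4.24 (SE 0.55, adjusted p = 0.000103) and higher than in YSCCC by a log2 fold change of 6.30 (SE 0.62, adjusted p = 1.54e-05). ZEB2 stood at 13.2, 12.2 and 14.1 CPM in KKU-100, 0.739, 0.753 and 0.539 CPM in HuCCT1 and 2.49, 2.62 and 1.40 CPM in YSCCC. ZEB2 was 19.4-fold higher than in HuCCT1 and 6.07-fold higher than in YSCCC (adjusted p = 4.74e-06 against HuCCT1 and 6.07e-05 against YSCCC). LOX, the collagen crosslinking enzyme, stood at 242, 458 and 304 CPM in KKU-100, 37.0, 41.5 and 31.9 CPM in HuCCT1 and 1.59, 1.86 and 5.77 CPM in YSCCC. LOX was 9.09-fold higher than in HuCCT1 and 109-fold higher than in YSCCC (adjusted p = 0.000153 against HuCCT1 and 3.21e-06 against YSCCC). The rest of the higher genes were FOXC2, TAGLN, ACTA2 and S100A4. FOXC2, a forkhead factor of mesenchyme, stood at 13.2, 14.1 and 15.1 CPM in KKU-100, 0.0411, 0.0470 and 0 CPM in HuCCT1 and 0, 0 and 0.0359 CPM in YSCCC. On the lower side, SNAI2 (Slug), a repressor of E-cadherin, stood at 0.575, 0.135 and 0.145 CPM in KKU-100, 45.6, 53.6 and 42.2 CPM in HuCCT1 and 13.3, 13.96 and 5.95 CPM in YSCCC. SNAI2 was 165-fold lower than in HuCCT1 and 38.8-fold lower than in YSCCC (adjusted p = 2.26e-06 against HuCCT1 and 1.53e-05 against YSCCC). FN1, which encodes fibronectin, stood at 108, 44.0 and 36.6 CPM in KKU-100, 495, 459 and 792 CPM in HuCCT1 and 568, 497 and 410.2 CPM in YSCCC. FN1 was 9.25-fold lower than in HuCCT1 and 7.82-fold lower than in YSCCC (adjusted p = 9.61e-05 against HuCCT1 and 0.000141 against YSCCC). The matrix genes TGFBI and COL1A1 were also lower, TGFBI by a log2 fold change of -5.96 against HuCCT1 and -3.08 against YSCCC. Neither VIM nor CDH2, the usual readouts of this transition, marked KKU-100. VIM, which encodes vimentin, stood at 17.1, 20.3 and 16.5 CPM in KKU-100, 148, 77.7 and 119.6 CPM in HuCCT1 and 0.326, 0.607 and 0.753 CPM in YSCCC. CDH2, which encodes N-cadherin, stood at 19.2, 33.2 and 30.2 CPM in KKU-100, 135, 140.1 and 166 CPM in HuCCT1 and 9.95, 15.2 and 4.81 CPM in YSCCC. For both genes KKU-100 lay between HuCCT1 and YSCCC. SNAI1 stood at 2.61, 2.43 and 2.99 CPM in KKU-100, and TWIST1 had 0 counts in KKU-100.

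Transcription factors of lineages other than the duct set KKU-100 apart gene by gene. Of 66 tested lineage factors, 17 were higher (25.8%) and 10 lower (15.2%), and of 25 tested HOX genes 5 were higher and 1 lower. Over all genes tested, 15.0% were higher and 17.4% lower. Whether either list as a whole differs from all genes was not tested. Factors nearly without counts in both other lines could enter the test through the KKU-100 libraries alone, and then could only be called higher. The higher shares of both lists are thus partly set by the filter on low counts, and they are given as a description. FOXD1, a forkhead factor of kidney stroma, stood at 52.98, 52.7 and 23.0 CPM in KKU-100, 0.0821, 0 and 0 CPM in HuCCT1 and 0.0408, 0 and 0.0717 CPM in YSCCC. It was higher than in HuCCT1 (adjusted p = 1.71e-06) and higher than in YSCCC (adjusted p = 1.51e-06), from at most 2 counts in any library of the other lines. FOXF1, a forkhead factor of gut and lung mesenchyme, stood at 31.2, 21.9 and 30.3 CPM in KKU-100, 0.411, 0.376 and 0.207 CPM in HuCCT1 and 0.0816, 0.0759 and 0.108 CPM in YSCCC. FOXF1 was 83.9-fold higher than in HuCCT1 and 315-fold higher than in YSCCC (adjusted p = 3.45e-07 against HuCCT1 and 1.53e-07 against YSCCC). A related gene, FOXF2, stood at 14.1, 14.01 and 12.99 CPM in KKU-100, 0 CPM in every HuCCT1 library and 0.204, 0.190 and 0 CPM in YSCCC. FOXC1 stood at 182, 119.8 and 175 CPM in KKU-100, 10.6, 17.2 and 7.30 CPM in HuCCT1 and 17.2, 20.9 and 20.05 CPM in YSCCC. FOXC1 was 13.6-fold higher than in HuCCT1 and 8.20-fold higher than in YSCCC. So members of the FOXC, FOXD and FOXF subfamilies were each higher than in both other lines. NKX2-5, the homeobox factor of heart muscle, stood at 30.9, 24.6 and 14.9 CPM in KKU-100, 0.0411, 0 and 0 CPM in HuCCT1 and 0, 0 and 0.0717 CPM in YSCCC. ZIC5, a zinc-finger factor of neural development, stood at 28.9, 15.3 and 20.8 CPM in KKU-100, 0, 0.0470 and 0 CPM in HuCCT1 and 0.0408, 0 and 0.0717 CPM in YSCCC. SOX6 and ZIC2 were higher as well.

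CDX2, the homeobox factor of the intestine, stood at 23.9, 22.4 and 14.5 CPM in KKU-100, 0.328, 0.800 and 0.788 CPM in HuCCT1 and 0.122, 0.0379 and 0.0717 CPM in YSCCC. CDX2 was 31.7-fold higher than in HuCCT1 and 262-fold higher than in YSCCC (adjusted p = 5.9e-06 against HuCCT1 and 1.07e-06 against YSCCC). The lowest KKU-100 value of CDX2 was still many times the highest value elsewhere. In the intestinal list 5 of the 18 genes could be tested, and 9 had 0 counts in KKU-100. Of the 5 tested, 2 were higher and 0 lower, beside 15.0% higher and 17.4% lower for all genes. A gene as low in both other lines as CDX2 could enter the test through the KKU-100 libraries alone, and could then hardly be called lower. That both called genes were higher is thus partly set by the filter on low counts. With so few genes tested, these counts are a description and do not show an intestinal program. GATA4, a foregut factor, stood at 32.0, 25.6 and 23.9 CPM in KKU-100, 10.1, 11.1 and 8.33 CPM in HuCCT1 and 0.122, 0.190 and 0.466 CPM in YSCCC. CEBPA, a liver and myeloid factor, stood at 11.8, 10.2 and 9.85 CPM in KKU-100, 0.123, 0 and 0.207 CPM in HuCCT1 and 1.30, 2.16 and 2.44 CPM in YSCCC. The higher HOX genes, which set position along the body axis in the embryo, were HOXB7, HOXC4, HOXC6, HOXC9 and HOXD13. HOXB7 stood at 20.6, 26.1 and 29.9 CPM in KKU-100, 1.81, 1.51 and 0.746 CPM in HuCCT1 and 0.897, 0.910 and 0.933 CPM in YSCCC. HOXC9 stood at 13.5, 19.1 and 15.2 CPM in KKU-100, 0.411, 0.235 and 0.415 CPM in HuCCT1 and 0.489, 1.18 and 2.65 CPM in YSCCC. HOXD13 stood at 6.79, 6.53 and 7.48 CPM in KKU-100, 0, 0.0470 and 0 CPM in HuCCT1 and 0, 0 and 0.0717 CPM in YSCCC. Each of these factors lay above all 6 libraries of the other lines.

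Among the lower factors, RUNX2, the factor of bone formation, stood at 0.522, 0.991 and 0.724 CPM in KKU-100, 28.9, 35.7 and 32.2 CPM in HuCCT1 and 33.5, 27.7 and 27.0 CPM in YSCCC. RUNX2 was lower than in HuCCT1 by a log2 fold change of -5.41 (SE 0.27, adjusted p = 2.2e-07) and lower than in YSCCC by a log2 fold change of -5.28 (SE 0.27, adjusted p = 2.15e-07). VGLL1, a cofactor of the TEAD proteins in placenta and some carcinomas, had 0 CPM in every KKU-100 library, 71.1, 59.5 and 60.2 CPM in HuCCT1 and 160.0, 148 and 35.0 CPM in YSCCC. No KKU-100 library held a count for VGLL1, and RUNX2 stayed below 1 CPM. GATA3, a factor of luminal and urothelial epithelium, stood at 12.4, 5.67 and 8.74 CPM in KKU-100, 24.6, 25.9 and 20.6 CPM in HuCCT1 and 150.4, 136 and 79.5 CPM in YSCCC. GATA3 was 2.66-fold lower than in HuCCT1 and 13.7-fold lower than in YSCCC. NR2F2, a nuclear receptor, was 10.6-fold lower than in HuCCT1 and 2.39-fold lower than in YSCCC. FOXA2, a pioneer factor of endoderm, separated the lines in another way, with 0 CPM in every KKU-100 library, 60.5, 35.0 and 38.7 CPM in HuCCT1 and 0 CPM in every YSCCC library, so its absence was shared with YSCCC.

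**Figure D2:**
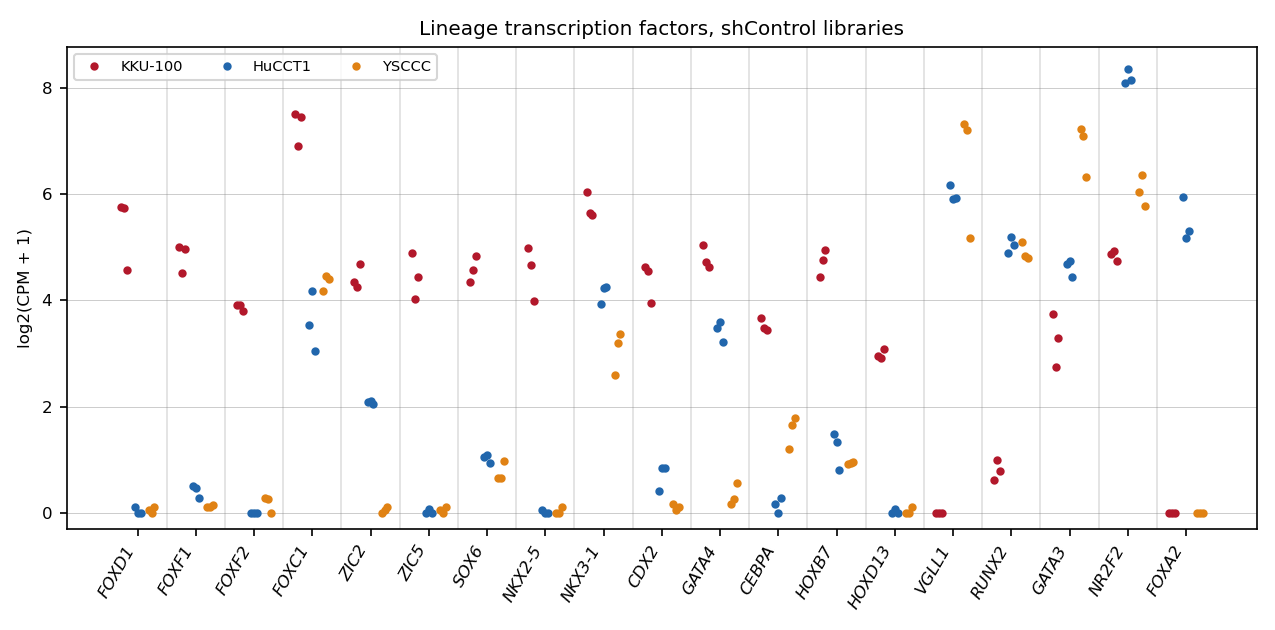
Levels of lineage transcription factors as log2(CPM + 1) in the 9 shControl libraries, 1 point per library, with genes along the horizontal axis. From FOXD1 to HOXD13 the KKU-100 points lie above all points of both other lines, and from VGLL1 to NR2F2 below them, while FOXA2 is high only in HuCCT1.

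Wnt genes differed by member. Of 39 tested Wnt genes, 9 were higher (23.1%) and 8 lower (20.5%), shares close to the 15.0% and 17.4% of all genes. The 8 lower genes were 7 ligand genes and the inhibitor DKK3, and the 9 higher ones held no ligand of the WNT family. WNT7B stood at 2.30, 1.58 and 1.497 CPM in KKU-100, 80.3, 102 and 114 CPM in HuCCT1 and 151, 128 and 37.5 CPM in YSCCC. WNT7B was lower than in HuCCT1 by a log2 fold change of -5.79 (SE 0.52, adjusted p = 8.28e-06) and lower than in YSCCC by a log2 fold change of -5.88 (SE 0.52, adjusted p = 7.47e-06). WNT10A stood at 0.0522, 0.225 and 0.0483 CPM in KKU-100, 52.0, 40.6 and 50.1 CPM in HuCCT1 and 22.3, 14.8 and 16.5 CPM in YSCCC. WNT10A was 438-fold lower than in HuCCT1 and 164-fold lower than in YSCCC (adjusted p = 2.03e-07 against HuCCT1 and 4.63e-07 against YSCCC). Besides RSPO3, the higher genes held SFRP1, a secreted Wnt antagonist, at 65.7, 88.8 and 112 CPM in KKU-100, 0.205, 0.0470 and 0 CPM in HuCCT1 and 0.367, 0.0759 and 0.143 CPM in YSCCC. The receptor FZD3 was 4.205-fold higher than in HuCCT1 and 2.503-fold higher than in YSCCC. TNFRSF19, a Wnt-responsive receptor, stood at 67.4, 65.1 and 106 CPM in KKU-100, 14.5, 12.2 and 15.1 CPM in HuCCT1 and 0.245, 0.114 and 0.215 CPM in YSCCC. AXIN2, a general target of the pathway, did not mark KKU-100, at 0.679, 1.13 and 1.93 CPM in KKU-100, 0.123, 0.376 and 1.16 CPM in HuCCT1 and 4.36, 3.03 and 6.24 CPM in YSCCC. Without YSCCC replicate 3, 13 Wnt genes were lower in place of 8.

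In the Hedgehog pathway SMO, the signal transducer below the receptor PTCH1, was present in KKU-100 and nearly without counts elsewhere, at 34.0, 49.7 and 59.4 CPM in KKU-100, 0 CPM in every HuCCT1 library and 0.0408, 0 and 0 CPM in YSCCC. It was at least 1109-fold higher than in HuCCT1 (adjusted p = 1.48e-06) and higher than in YSCCC (adjusted p = 1.32e-06). The whole YSCCC signal for SMO was a single count. GLI3, a transcription factor of the pathway, stood at 7.99, 5.72 and 7.29 CPM in KKU-100, 0, 0.0941 and 0 CPM in HuCCT1 and 0.489, 0.266 and 0.359 CPM in YSCCC. The target genes PTCH1 and GLI1 did not pass in both comparisons. PTCH1 stood at 15.7, 17.4 and 23.6 CPM in KKU-100, 7.02, 13.1 and 8.29 CPM in HuCCT1 and 26.2, 25.2 and 23.0 CPM in YSCCC. GLI1 stood at 2.04, 2.97 and 1.74 CPM in KKU-100, 0, 0.0470 and 0.166 CPM in HuCCT1 and 1.92, 2.84 and 3.08 CPM in YSCCC. Of all 28 tested Notch and Hedgehog genes, 6 were higher (21.4%) and 4 lower (14.3%), or 2 lower without KKU-100 replicate 2 or 3. For all genes tested the shares were 15.0% higher and 17.4% lower. In the TGF-beta and BMP list 6 of 40 were higher and 6 lower, with 3 higher without HuCCT1 replicate 2 or without KKU-100 replicate 2 or 3. BMP6, a ligand, stood at 175, 125 and 147 CPM in KKU-100, 0.616, 0.188 and 0.539 CPM in HuCCT1 and 0.449, 0.303 and 0.610 CPM in YSCCC. BMP6 was 333-fold higher than in HuCCT1 and 328-fold higher than in YSCCC (adjusted p = 1.42e-07 against HuCCT1 and 1.08e-07 against YSCCC). BAMBI, a decoy receptor, was 18.7-fold higher than in HuCCT1 and 48.5-fold higher than in YSCCC, and ID2, an inhibitor of differentiation factors, was 54.4-fold lower than in HuCCT1 and 63.5-fold lower than in YSCCC. SMAD4, the shared mediator, stood at 19.1, 20.2 and 21.3 CPM in KKU-100, 42.8, 49.3 and 50.6 CPM in HuCCT1 and 51.8, 48.7 and 76.8 CPM in YSCCC. SMAD4 was 2.35-fold lower than in HuCCT1 and 2.92-fold lower than in YSCCC.

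The receptors EGFR, ERBB3 and MET were lower in KKU-100, and FGF2, IGF1R and 3 genes of IGF binding proteins were higher. EGFR stood at 878, 313 and 469 CPM in KKU-100, 1477, 1138 and 1025 CPM in HuCCT1 and 4686, 4179 and 3173 CPM in YSCCC. EGFR was lower than in HuCCT1 by a log2 fold change of -1.13 (SE 0.34, adjusted p = 0.0162) and lower than in YSCCC by a log2 fold change of -2.86 (SE 0.36, adjusted p = 8.45e-05). That call was lost without KKU-100 replicate 3 or HuCCT1 replicate 1. In EGFR, KKU-100 replicate 1 came closest to the other lines without reaching them. ERBB3, the partner of EGFR and ERBB2, stood at 6.90, 3.56 and 4.25 CPM in KKU-100, 65.7, 102 and 76.0 CPM in HuCCT1 and 507, 382 and 266 CPM in YSCCC. ERBB3 was 16.6-fold lower than in HuCCT1 and 78.5-fold lower than in YSCCC (adjusted p = 5.18e-06 against HuCCT1 and 5.24e-07 against YSCCC). MET, the receptor of hepatocyte growth factor, stood at 122, 166 and 88.5 CPM in KKU-100, 518, 682 and 639 CPM in HuCCT1 and 562, 394 and 342 CPM in YSCCC. MET was 4.88-fold lower than in HuCCT1 and 3.45-fold lower than in YSCCC (adjusted p = 5.6e-05 against HuCCT1 and 0.00024 against YSCCC). All KKU-100 values of both receptors lay below the other libraries. FGF2, a growth factor of mesenchymal and other cells, stood at 1054, 577 and 809.7 CPM in KKU-100, 137, 75.8 and 74.2 CPM in HuCCT1 and 3.59, 4.10 and 6.99 CPM in YSCCC. FGF2 was 8.51-fold higher than in HuCCT1 and 166-fold higher than in YSCCC (adjusted p = 4.33e-05 against HuCCT1 and 5.24e-07 against YSCCC). IGF1R, the receptor of insulin-like growth factors, was 3.22-fold higher than in HuCCT1 and 10.2-fold higher than in YSCCC, at 218, 147 and 205 CPM in KKU-100. Of the IGF binding proteins, IGFBP1, IGFBP4 and IGFBP5 were higher, and IGFBP4 stood at 1081, 1278 and 1587 CPM in KKU-100, 251, 274 and 353 CPM in HuCCT1 and 2.90, 1.44 and 0.359 CPM in YSCCC. The list of the EGFR family and its ligands had 4 of 17 tested genes higher and 4 lower, with a median of 1.01. That was 23.5% each way, beside 15.0% higher and 17.4% lower for all genes. LRIG3, whose call was lost without KKU-100 replicate 1, was among the higher ones. Of the 17 genes, 2 were higher without KKU-100 replicate 1, and 2 were lower without HuCCT1 replicate 1 or KKU-100 replicate 3. Of all 52 tested genes of the other receptor kinases and their ligands, 7 were higher and 8 lower, or 13 lower without YSCCC replicate 3. Among 24 tested genes of ERK output, a list of feedback genes and other genes taken to respond to this kinase, 9 were higher and 0 lower. That share was 37.5%, against 15.0% of all genes, and 6 to 9 were higher when any 1 library was left out. DUSP4, an ERK phosphatase, stood at 1219, 1132 and 1461 CPM in KKU-100, 169.8, 267 and 226 CPM in HuCCT1 and 156, 126 and 48.0 CPM in YSCCC. DUSP4 was higher than in HuCCT1 by a log2 fold change of 2.52 (SE 0.38, adjusted p = 0.000264) and higher than in YSCCC by a log2 fold change of 3.53 (SE 0.40, adjusted p = 3.67e-05).

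In the matrix, a laminin chain gene was lower in KKU-100 and chains of collagen IV were higher. LAMA3, the alpha chain of laminin-332, stood at 15.0, 7.97 and 14.8 CPM in KKU-100, 572, 1030.0 and 629 CPM in HuCCT1 and 123, 113 and 59.7 CPM in YSCCC. LAMA3 was 59.0-fold lower than in HuCCT1 and 7.82-fold lower than in YSCCC (adjusted p = 1.84e-06 against HuCCT1 and 6.84e-05 against YSCCC). COL4A1, a chain of collagen IV, stood at 59.98, 80.0 and 63.3 CPM in KKU-100, 0.123, 2.59 and 1.29 CPM in HuCCT1 and 0.530, 0.114 and 0.753 CPM in YSCCC. Its neighbour COL4A2 stood at 72.3, 63.7 and 98.9 CPM in KKU-100, 4.19, 6.26 and 4.81 CPM in HuCCT1 and 0.408, 0.266 and 0.395 CPM in YSCCC. COL4A1 was 50.9-fold higher than in HuCCT1 and 146-fold higher than in YSCCC (adjusted p = 0.000109 against HuCCT1 and 4.06e-05 against YSCCC). The lists themselves held genes of both directions, beside 15.0% higher and 17.4% lower for all genes tested. Of 29 integrin and laminin genes, 6 were higher (20.7%) and 7 lower (24.1%). Of 43 collagen and matrix genes, 7 were higher (16.3%) and 11 lower (25.6%). ITGB6, the beta subunit of an epithelial integrin, was nearly absent at 0, 0 and 0.0483 CPM in KKU-100, 11.9, 19.7 and 17.5 CPM in HuCCT1 and 125, 117 and 139.5 CPM in YSCCC. ITGB8, another beta subunit, stood at 97.3, 187 and 228 CPM in KKU-100, 21.1, 29.4 and 29.2 CPM in HuCCT1 and 1.35, 1.78 and 0.933 CPM in YSCCC. THBS1, which encodes thrombospondin, was 121-fold lower than in HuCCT1 and 6.05-fold lower than in YSCCC. Of 37 matrix proteases and inhibitors 8 were higher (21.6%) and 14 lower (37.8%). PLAU, which encodes urokinase, stood at 7.58, 30.2 and 12.9 CPM in KKU-100, 754, 691 and 535 CPM in HuCCT1 and 177, 150.02 and 205 CPM in YSCCC. SERPINE2, a serpin that inhibits it, stood at 461, 689.8 and 1112 CPM in KKU-100, 2.55, 1.55 and 1.87 CPM in HuCCT1 and 7.10, 9.07 and 24.0 CPM in YSCCC. The protease was 39.1-fold lower than in HuCCT1 and 10.5-fold lower than in YSCCC, and the inhibitor was 379-fold higher than in HuCCT1 and 56.3-fold higher than in YSCCC. TIMP3, a protease inhibitor of the matrix, stood at 1506, 1728 and 1745 CPM in KKU-100, 0 CPM in every HuCCT1 library and 283, 468 and 237 CPM in YSCCC, so it was also higher in KKU-100, and HuCCT1 had none.

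Clustered protocadherins, homophilic adhesion proteins best known from neurons, marked KKU-100 as a block of neighbouring genes. All 15 tested PCDHB genes, in 1 cluster on chromosome 5 (141094606 to 141249365, GRCh38), were higher than in both other lines. Their summed level was 73.1 to 132.3 CPM in KKU-100, 2.42 to 4.05 CPM in HuCCT1 and 5.99 to 7.25 CPM in YSCCC. At such low levels elsewhere, members could enter the test through the KKU-100 libraries alone. That all 15 were higher is thus partly set by the filter on low counts, and it is given as a description. PCDHB14 stood at 15.8, 25.8 and 29.3 CPM in KKU-100, 0.780, 1.46 and 1.33 CPM in HuCCT1 and 2.04, 3.49 and 1.83 CPM in YSCCC. PCDHB14 was 19.9-fold higher than in HuCCT1 and 9.64-fold higher than in YSCCC (adjusted p = 1.14e-05 against HuCCT1 and 4.52e-05 against YSCCC). The flanking clusters did not follow in the same way: 1 of 4 tested PCDHA genes was higher, and of 18 tested PCDHG genes 5 were higher and 1 lower. The PCDHG sum was 46.9 to 71.3 CPM in KKU-100, 13.5 to 22.8 CPM in HuCCT1 and 86.2 to 123 CPM in YSCCC. PCDHB genes are single-exon and similar to each other, and genes of the other clusters share their last exons, so counts of single members are uncertain.

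**Figure D3:**
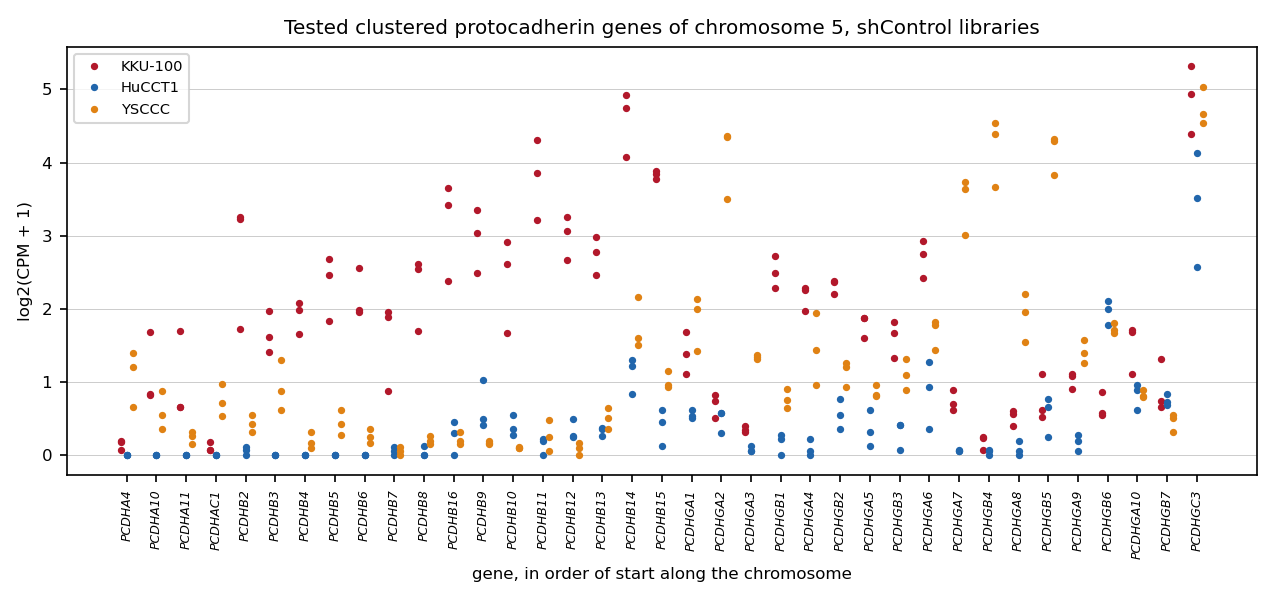
Levels of the tested clustered protocadherin genes in order of their start along the chromosome, as log2(CPM + 1), 1 point per shControl library. KKU-100 lies above both other lines over all 15 PCDHB genes and is mixed with or below YSCCC over much of the PCDHG cluster.

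In windows of 25 neighbouring tested genes (GRCh38), the window with the highest median log2 difference was the one holding these genes, from TMCO6 to PCDHB15 (chromosome 5, 140639427 to 141249365), with 16 higher and 0 lower genes and a median of 4.10 with genes at 0 set to their bound. Next among windows that do not overlap was one on chromosome 8 (23102590 to 26514092), with 14 higher genes, 1 lower and a median of 1.75. It was followed by a window of zinc-finger genes from AC005498.3 to ZNF416 (chromosome 19, 56545566 to 57578911). That window had 17 higher and 0 lower genes and a median of 1.66. Windows with low medians were ZNF534 to ZNF525 (chromosome 19, 52429187 to 53392217), at -3.98 with 9 lower genes and 1 higher, and SSBP1 to ARHGEF5 (chromosome 7, 141738334 to 144380632), at -3.27 with 13 lower and 2 higher. Another was LINC01133 to KLHDC9 (chromosome 1, 159958035 to 161100346), at -3.06 with 13 lower and 0 higher. A window on chromosome X (149938613 to 152994116) came after it, at -2.57 with 7 lower and 0 higher. Windows were ranked by this median, so their counts are a description. The window of the PCDHB genes also holds members that could be tested through KKU-100 alone. DNA copy number was not measured here.

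Some genes were off in KKU-100 and on in both other lines, or the reverse. With at least 5 CPM in all 6 libraries of the other lines and under 0.1 CPM in every KKU-100 library, 80 genes were off, and 33 of them had 0 counts. The reverse held for 13 genes: TNFAIP6, SMO, HOXD13, ZIC5, RSPO3, DACT2, FOXC2, NKX2-5, KCNQ3, LBX1-AS1, LINC02223, FOXD1 and LINC02274. In a KKU-100 library 2 counts come to about 0.1 CPM, so the limit for off sits close to what this depth can show. KDF1, PRSS8, FOLR1 and CRB3 were among the 80, beside EPCAM, GRHL2, ITGB6, VGLL1 and STK11. CRB3, a polarity protein of epithelial cells, stood next to DENND1C and AC010503.4 as the sole run of at least 3 neighbouring off genes (chromosome 19, 6463777 to 6482557), where CRB3 and DENND1C overlap and their reads cannot be separated with certainty. CDKN2A and CDKN2B, cell cycle inhibitors of 1 locus, had 0 counts in KKU-100 and in YSCCC, and CDKN2A stood at 75.0, 80.3 and 71.0 CPM and CDKN2B at 123, 160.2 and 115 CPM in HuCCT1.

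Gene lists that stood above or below the rest are given by their shares, read against 15.0% higher and 17.4% lower for all genes tested. MHC class I and presentation had 70.6% of its members higher, the NRF2 list 43.6% and the interferon-stimulated list 41.9%. The epithelial junction list had 82.4% lower, cell cycle 55.3% and keratins 52.6%. Lists near the background in both directions included TGF-beta and BMP, with 15.0% each way. Of 31 tested genes of YAP and TEAD, 6 were higher and 5 lower, and of 28 immune checkpoint and death ligand genes, 6 were higher and 5 lower. Of 16 complement and acute phase genes, 4 were higher and 2 lower. Of 24 ER chaperone genes, 2 were higher and 2 lower, but 11 were higher without YSCCC replicate 3 and 1 without KKU-100 replicate 1. Of 15 S100 genes, 2 were higher, or 1 without KKU-100 replicate 1 or YSCCC replicate 1 or 2, and 2 lower, or 4 without YSCCC replicate 3. Of 16 gastric and foregut genes, 1 was higher and 3 lower, or 1 lower without KKU-100 replicate 1 or 3 or YSCCC replicate 1. Of 28 cancer-testis and imprinted genes, 0 were higher and 1 lower, or 2 lower without KKU-100 replicate 2. Of 13 mitochondrially encoded genes of the respiratory chain, 0 were higher and 2 lower, or 1 lower without HuCCT1 replicate 1 or 3, KKU-100 replicate 2 or 3 or YSCCC replicate 1.

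**Figure D4:**
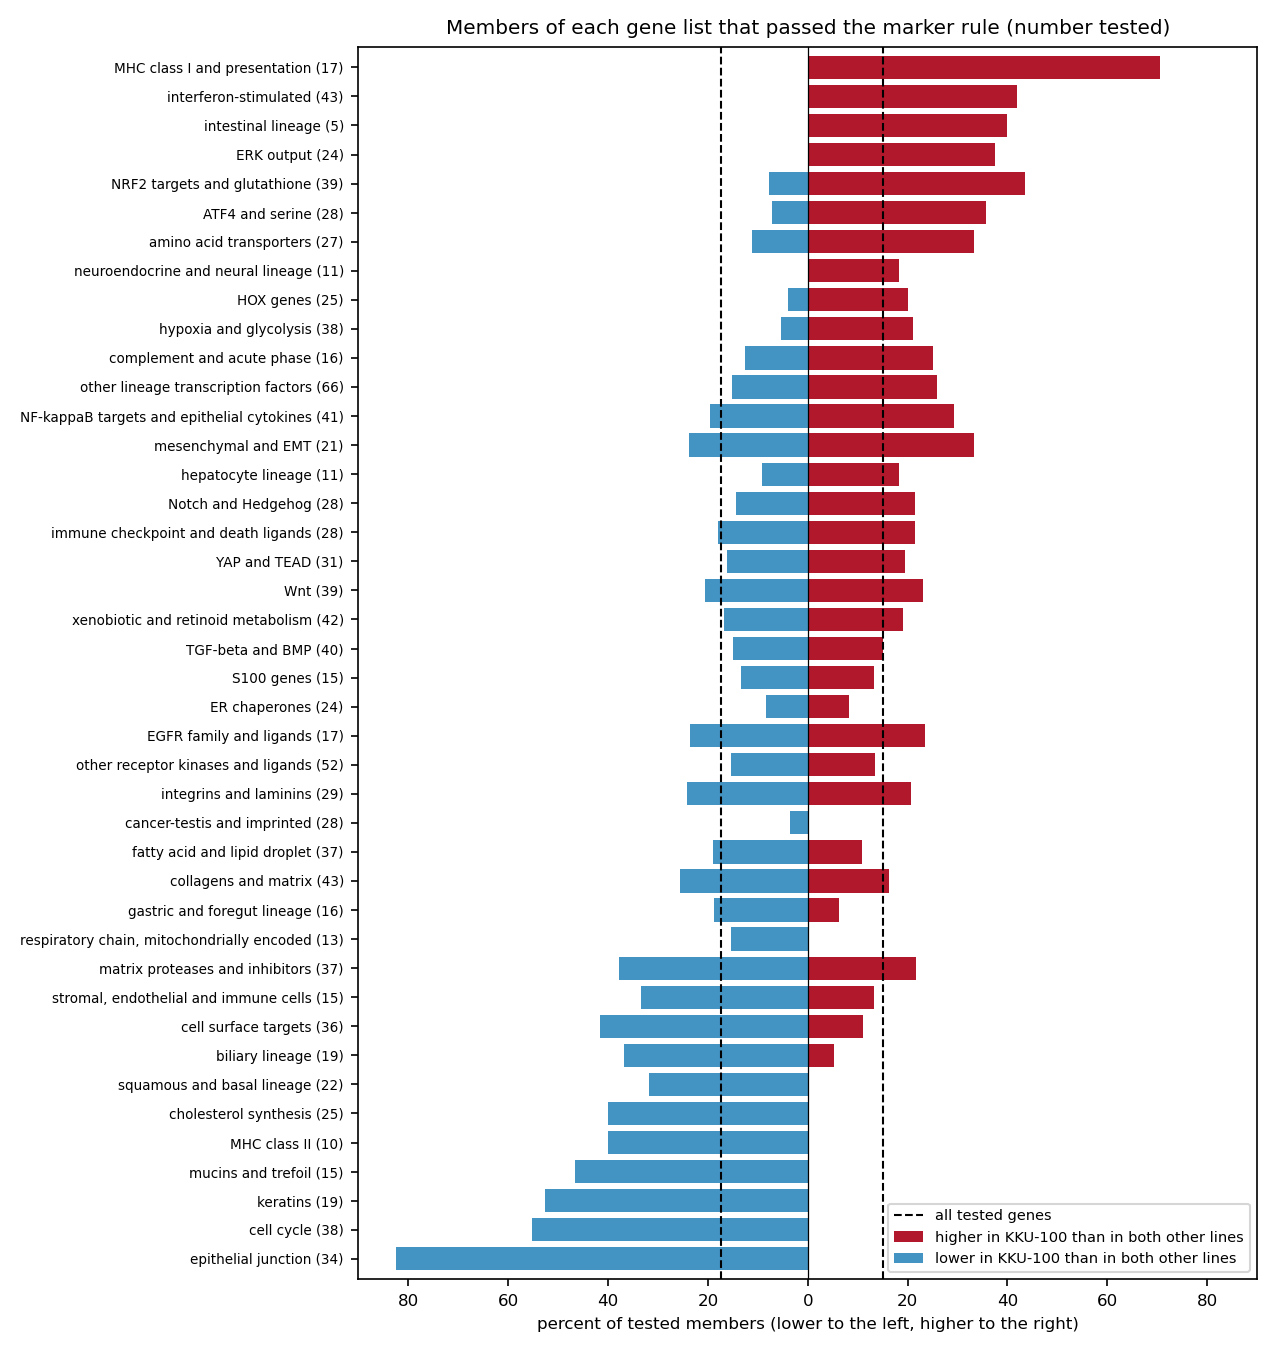
Percent of the tested members of gene lists that were lower (left) or higher (right) in KKU-100 than in both other lines, with the number tested in brackets and dashed lines at the shares of all tested genes (17.4% and 15.0%). The longest bars are epithelial junction to the left, at 82.4%, and MHC class I and presentation to the right, at 70.6%.

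Interferon-stimulated genes, the antiviral set that interferons induce, were high in every KKU-100 library. Their summed level was 16847 to 23578 CPM in KKU-100 and 1613 to 1817 CPM in YSCCC, and in HuCCT1 it ran from 1827 CPM to 14444 CPM, the latter in replicate 2. Of 43 tested, 18 were higher in KKU-100 than in both other lines and 0 were lower, with a median of 2.83. Without HuCCT1 replicate 2 the count was 39, without HuCCT1 replicate 3 it was 10, and without KKU-100 replicate 1 it was 9. With limma-voom it was 32. Every KKU-100 library lay above every other library in this sum, but HuCCT1 replicate 2 came near to them. ISG15, a ubiquitin-like modifier, stood at 1518, 1075 and 1029.9 CPM in KKU-100, 53.5, 437 and 81.2 CPM in HuCCT1 and 32.7, 31.1 and 29.5 CPM in YSCCC. ISG15 was higher than in HuCCT1 by a log2 fold change of 2.66 (SE 0.65, adjusted p = 0.00542) and higher than in YSCCC by a log2 fold change of 5.28 (SE 0.74, adjusted p = 0.000158). OASL, an antiviral protein of the oligoadenylate synthetase family, stood at 946, 429 and 392 CPM in KKU-100, 2.13, 108 and 9.50 CPM in HuCCT1 and 13.6, 6.11 and 11.1 CPM in YSCCC. OASL was 14.8-fold higher than in HuCCT1 and 57.4-fold higher than in YSCCC (adjusted p = 0.0125 against HuCCT1 and 0.00207 against YSCCC). MX1, an antiviral GTPase, did not pass against HuCCT1, where replicate 2 was above KKU-100: it stood at 483, 429 and 358 CPM in KKU-100, 25.2, 873 and 73.8 CPM in HuCCT1 and 1.83, 2.12 and 4.91 CPM in YSCCC. In the shRNF213 libraries 12 genes of the list were higher, and ISG15 was among them while OASL was not. The count of higher interferon-stimulated genes thus depended on which HuCCT1 and KKU-100 replicates entered the fit, and on the tool.

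Genes of antigen presentation by MHC class I were higher in KKU-100, with counts that depended less on single libraries. Of 17 tested genes of MHC class I and presentation, 12 were higher and 0 lower, and leaving out any 1 library gave 10 to 13. HLA-B stood at 2013, 1848 and 2379 CPM in KKU-100, 519, 878 and 439 CPM in HuCCT1 and 294, 305 and 359 CPM in YSCCC. HLA-B was higher than in HuCCT1 by a log2 fold change of 1.77 (SE 0.26, adjusted p = 0.000232) and higher than in YSCCC by a log2 fold change of 2.70 (SE 0.27, adjusted p = 1.67e-05). B2M, the light chain of class I, stood at 1306, 1251 and 1504 CPM in KKU-100, 561, 854 and 516 CPM in HuCCT1 and 821, 816 and 665 CPM in YSCCC. B2M was 2.104-fold higher than in HuCCT1 and 1.76-fold higher than in YSCCC (adjusted p = 0.0017 against HuCCT1 and 0.00747 against YSCCC). TAP1, the peptide transporter, was 4.05-fold higher than in HuCCT1 and 3.82-fold higher than in YSCCC. HLA genes resemble each other and differ between lines from the reference sequence, so the values of single HLA genes are uncertain. MHC class II went the other way, with 4 of 10 tested genes lower and 0 higher: CD74, the invariant chain, stood at 2.66, 2.79 and 2.08 CPM in KKU-100, 182, 198 and 154 CPM in HuCCT1 and 47.1, 49.995 and 91.9 CPM in YSCCC. CD74 was 70.9-fold lower than in HuCCT1 and 25.1-fold lower than in YSCCC (adjusted p = 2.8e-07 against HuCCT1 and 9.74e-07 against YSCCC). IDO1, the tryptophan-degrading enzyme, stood at 35.5, 55.2 and 22.1 CPM in KKU-100, 0.164, 2.35 and 1.078 CPM in HuCCT1 and 0.0816, 0 and 0.0717 CPM in YSCCC.

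Cytokine and complement genes differed by member. In the NF-kappaB and cytokine list 12 of 41 tested genes were higher (29.3%) and 8 lower (19.5%), beside 15.0% and 17.4% of all genes. CXCL8, a neutrophil chemoattractant, stood at 828, 558 and 549 CPM in KKU-100, 44.5, 29.1 and 23.3 CPM in HuCCT1 and 2.04, 9.98 and 5.06 CPM in YSCCC. CXCL8 was higher than in HuCCT1 by a log2 fold change of 4.32 (SE 0.51, adjusted p = 5.36e-05) and higher than in YSCCC by a log2 fold change of 6.82 (SE 0.57, adjusted p = 5.54e-06). IL6, an inflammatory cytokine, stood at 303, 95.6 and 94.3 CPM in KKU-100, 20.03, 20.4 and 13.4 CPM in HuCCT1 and 1.55, 2.54 and 1.22 CPM in YSCCC. IL6 was 9.15-fold higher than in HuCCT1 and 92.8-fold higher than in YSCCC (adjusted p = 0.000243 against HuCCT1 and 6.64e-06 against YSCCC). On the lower side, CXCL5 was at 0 counts in KKU-100 and at 170.4, 101 and 219 CPM in HuCCT1 and 1.67, 1.138 and 2.55 CPM in YSCCC. IL1RN, the interleukin-1 receptor antagonist, stood at 0.679, 0.405 and 0.676 CPM in KKU-100, 73.8, 146 and 53.8 CPM in HuCCT1 and 20.7, 14.9 and 33.5 CPM in YSCCC. CXCL1 on the higher side and SAA1 and SAA2 on the lower side have near-identical relatives and are uncertain as single genes. The neighbouring genes C1R and C1S, proteases that start the classical complement pathway, were both higher: C1S stood at 1269, 1337 and 2124 CPM in KKU-100, 3.04, 5.60 and 6.63 CPM in HuCCT1 and 3.47, 5.27 and 6.92 CPM in YSCCC. C1S was 309.8-fold higher than in HuCCT1 and 302-fold higher than in YSCCC (adjusted p = 3.46e-07 against HuCCT1 and 3.23e-07 against YSCCC). C1R stood at 628, 598 and 1019.9 CPM in KKU-100, 7.31, 10.7 and 12.6 CPM in HuCCT1 and 0.163, 0.114 and 0.287 CPM in YSCCC. CFB, of the alternative pathway, stood at 737, 681 and 1937 CPM in KKU-100, 25.2, 69.7 and 40.3 CPM in HuCCT1 and 51.2, 43.1 and 101 CPM in YSCCC. C3, the central component, was lower than in both lines, at 229, 237 and 344 CPM in KKU-100, 627, 786 and 575 CPM in HuCCT1 and 808, 1019.9 and 537 CPM in YSCCC.

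NRF2 targets, the genes of the antioxidant response, were higher in KKU-100 for a large part of the list. Of 39 tested, 17 were higher and 3 lower, with a median of 0.93. Their summed level was 14557 to 16015 CPM in KKU-100, 4284 to 4504 CPM in HuCCT1 and 5685 to 7693 CPM in YSCCC, with no overlap. NQO1, a quinone reductase, stood at 1273, 1383 and 1914 CPM in KKU-100, 154, 203 and 127 CPM in HuCCT1 and 162, 258 and 231 CPM in YSCCC. NQO1 was higher than in HuCCT1 by a log2 fold change of 3.24 (SE 0.27, adjusted p = 5.4e-06) and higher than in YSCCC by a log2 fold change of 2.81 (SE 0.26, adjusted p = 1.17e-05). TXNRD1, which reduces thioredoxin, stood at 3546, 2032 and 2440.0 CPM in KKU-100, 645, 509.8 and 573 CPM in HuCCT1 and 1005, 1041 and 1194 CPM in YSCCC. TXNRD1 was 4.64-fold higher than in HuCCT1 and 2.47-fold higher than in YSCCC (adjusted p = 2.33e-05 against HuCCT1 and 0.000587 against YSCCC). SRXN1, which repairs oxidised peroxiredoxins, was 9.46-fold higher than in HuCCT1 and 3.96-fold higher than in YSCCC. ABCC3, an export pump for conjugates, was 13.7-fold higher than in HuCCT1 and 38.0-fold higher than in YSCCC. AKR1C1, AKR1C2 and AKR1C3, reductases of steroids and carbonyls, were higher too but are near-identical and uncertain as single genes. AKR1C1 stood at 816, 698 and 700.5 CPM in KKU-100, 2.96, 1.22 and 1.58 CPM in HuCCT1 and 4.53, 7.78 and 17.8 CPM in YSCCC. NFE2L2, which encodes NRF2 itself, stood at 272, 159.9 and 207 CPM in KKU-100, 112, 101 and 114 CPM in HuCCT1 and 83.3, 89.3 and 113 CPM in YSCCC. That was 1.96-fold higher than in HuCCT1 and 2.24-fold higher than in YSCCC (adjusted p = 0.00241 against HuCCT1 and 0.000765 against YSCCC). GPX3, a secreted glutathione peroxidase, was lower, at 0.679, 0.991 and 0.628 CPM in KKU-100, 28.0, 51.1 and 33.3 CPM in HuCCT1 and 36.2, 39.0 and 30.5 CPM in YSCCC.

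Promoters of 2 of the higher NRF2 targets are shown because each holds TGACNNNGC, the core of the antioxidant response element to which NRF2 binds, or its reverse complement. Windows, build and orientation are as for the promoters above, and the match is in capitals. For TXNRD1 the window is chr12:104215529-104215778, plus strand, and the match starts 99 bases upstream of the gene start. For PGD the window is chr1:10398814-10399063, plus strand, and the match starts 201 bases upstream of the gene start.
TXNRD1: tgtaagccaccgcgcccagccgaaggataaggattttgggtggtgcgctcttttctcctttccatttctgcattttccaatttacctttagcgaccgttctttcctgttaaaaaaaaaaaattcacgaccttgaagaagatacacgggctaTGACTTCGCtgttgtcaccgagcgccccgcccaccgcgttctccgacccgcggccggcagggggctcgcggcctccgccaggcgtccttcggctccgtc
PGD: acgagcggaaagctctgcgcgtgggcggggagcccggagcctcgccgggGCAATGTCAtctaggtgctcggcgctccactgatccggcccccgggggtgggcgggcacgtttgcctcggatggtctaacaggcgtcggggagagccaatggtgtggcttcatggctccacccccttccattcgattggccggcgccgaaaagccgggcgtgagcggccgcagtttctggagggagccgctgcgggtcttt
Searched on both strands, TGACNNNGC was found in 3013 of 27305 windows of this length (11%). Of 13 higher NRF2 targets with a matched promoter, 3 held it, too few to compare the list with other genes. PGD, a dehydrogenase of the pentose phosphate pathway that makes NADPH, stood at 461, 670.4 and 709 CPM in KKU-100, 208, 227 and 244 CPM in HuCCT1 and 179, 153 and 214 CPM in YSCCC. PGD was 2.71-fold higher than in HuCCT1 and 3.37-fold higher than in YSCCC (adjusted p = 0.000181 against HuCCT1 and 4.91e-05 against YSCCC). A match shows letters, not binding.

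A part of the genes of amino acid supply was higher in KKU-100. Of 27 tested amino acid transporters, 9 were higher (33.3%) and 3 lower (11.1%). Of 28 tested genes of the ATF4 and serine list, 10 were higher (35.7%) and 2 lower (7.14%). For all genes tested the shares were 15.0% higher and 17.4% lower. The ATF4 and serine count was 6 without HuCCT1 replicate 3 and 17 without YSCCC replicate 3, the YSCCC library with the highest level of these genes. Summed ATF4 and serine levels were 5671 to 7926 CPM in KKU-100, 3023 to 3682 CPM in HuCCT1 and 1574 to 4145 CPM in YSCCC. SLC7A5, the large neutral amino acid transporter, stood at 3849, 2507 and 2823 CPM in KKU-100, 374, 504 and 443 CPM in HuCCT1 and 197, 156 and 599.9 CPM in YSCCC. SLC7A5 was higher than in HuCCT1 by a log2 fold change of 2.80 (SE 0.46, adjusted p = 0.000503) and higher than in YSCCC by a log2 fold change of 3.27 (SE 0.47, adjusted p = 0.000199). SLC3A2, its heavy chain, was 3.37-fold higher than in HuCCT1 and 5.45-fold higher than in YSCCC (adjusted p = 0.000264 against HuCCT1 and 3.31e-05 against YSCCC). SLC7A11, the cystine transporter, was 4.003-fold higher than in HuCCT1 and 6.18-fold higher than in YSCCC. PSAT1, an enzyme of serine synthesis, stood at 718, 566 and 566 CPM in KKU-100, 0, 0 and 0.0829 CPM in HuCCT1 and 62.3, 48.3 and 331 CPM in YSCCC. STC2, a secreted glycoprotein induced by ATF4, stood at 805, 421 and 406 CPM in KKU-100, 5.25, 4.09 and 4.56 CPM in HuCCT1 and 3.51, 3.03 and 20.2 CPM in YSCCC. Both were above every other library, and HuCCT1 had almost no PSAT1. Ham's F12 and RPMI-1640 differ in their amino acids, and the part of the medium was not tested.

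Part of the genes of cholesterol synthesis, and single genes of fatty acid metabolism, were lower in KKU-100. Of 25 tested genes of cholesterol synthesis, 10 were lower and 0 higher, with a median of -0.97. Leaving out any 1 library gave 7 to 12 lower genes. Their summed level was 1167, 2018 and 2691 CPM in KKU-100, 2982 to 5399 CPM in HuCCT1 and 4227, 2435 and 3114 CPM in YSCCC. KKU-100 replicate 3 thus lay above YSCCC replicate 2 in this sum. NSDHL, a sterol dehydrogenase, stood at 11.7, 18.4 and 20.7 CPM in KKU-100, 126, 171 and 135 CPM in HuCCT1 and 89.0, 66.6 and 54.9 CPM in YSCCC. NSDHL was lower than in HuCCT1 by a log2 fold change of -3.09 (SE 0.27, adjusted p = 6.58e-06) and lower than in YSCCC by a log2 fold change of -2.05 (SE 0.26, adjusted p = 7.26e-05). FADS1, the delta-5 desaturase of polyunsaturated fatty acids, stood at 0.157, 0.495 and 0.145 CPM in KKU-100, 144, 187 and 189 CPM in HuCCT1 and 179.7, 103 and 163 CPM in YSCCC. FADS1 was 652-fold lower than in HuCCT1 and 559-fold lower than in YSCCC (adjusted p = 1.56e-07 against HuCCT1 and 1.36e-07 against YSCCC). Its neighbour FADS2 was 19.4-fold lower than in HuCCT1 and 6.93-fold lower than in YSCCC. On the higher side, CPT1A, which brings fatty acids into mitochondria, was 2.73-fold higher than in HuCCT1 and 2.13-fold higher than in YSCCC. In the fatty acid list as a whole 4 of 37 tested genes were higher and 7 lower, shares near those of all genes. In the hypoxia and glycolysis list 8 of 38 were higher (21.1%) and 2 lower (5.26%), or 1 lower without KKU-100 replicate 1 or YSCCC replicate 1. For all genes tested the shares were 15.0% higher and 17.4% lower. SLC2A3, a glucose transporter of that list, stood at 2430.0, 2146 and 2816 CPM in KKU-100, 15.8, 24.2 and 38.9 CPM in HuCCT1 and 5.75, 3.41 and 5.60 CPM in YSCCC. SLC2A3 was 93.7-fold higher than in HuCCT1 and 501-fold higher than in YSCCC (adjusted p = 7.05e-07 against HuCCT1 and 1.71e-07 against YSCCC). CA12, a carbonic anhydrase, stood at 89.9, 167 and 305 CPM in KKU-100, 2.05, 3.20 and 3.23 CPM in HuCCT1 and 1.79, 0.872 and 0.933 CPM in YSCCC.

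Single genes of retinoid handling and drug metabolism differed, while the shares of their list were close to those of all genes. Of 42 tested genes of xenobiotic and retinoid metabolism, 8 were higher and 7 lower (16.7%), beside 15.0% and 17.4% of all genes, with a median of 0.01. CRABP2, which carries retinoic acid to the nucleus, stood at 0.104, 0.0450 and 0.145 CPM in KKU-100, 24.96, 75.1 and 60.2 CPM in HuCCT1 and 329, 379.6 and 224 CPM in YSCCC. CRABP2 was 544-fold lower than in HuCCT1 and 3168-fold lower than in YSCCC (adjusted p = 1.25e-06 against HuCCT1 and 3.03e-07 against YSCCC). STRA6, a membrane receptor for retinol uptake, stood at 0, 0.0450 and 0 CPM in KKU-100, 6.36, 9.13 and 13.6 CPM in HuCCT1 and 90.2, 71.5 and 132 CPM in YSCCC. ALDH1A3, which makes retinoic acid, was 55.6-fold lower than in HuCCT1 and 12.7-fold lower than in YSCCC. These 3 genes were lower than in both other lines. On the higher side, ALDH3A1, another aldehyde dehydrogenase, stood at 160.1, 636 and 299 CPM in KKU-100, 1.64, 0.659 and 1.87 CPM in HuCCT1 and 0 CPM in every YSCCC library. NNMT, nicotinamide N-methyltransferase, stood at 767, 686 and 719 CPM in KKU-100, 57.0, 42.2 and 57.5 CPM in HuCCT1 and 1.83, 1.18 and 5.02 CPM in YSCCC. CYP4F3 and CYP4F11 were higher but resemble each other and are uncertain as single genes.

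The genes of several surface proteins of epithelial tumours were lower. Of 36 tested surface genes, 15 were lower (41.7%) and 4 higher (11.1%), beside 17.4% lower and 15.0% higher for all genes. EPCAM, which the biliary list also holds, was among the lower ones. DPP4, a surface peptidase, stood at 0.157, 0.586 and 0.386 CPM in KKU-100, 17.2, 26.6 and 18.4 CPM in HuCCT1 and 327, 318 and 110.1 CPM in YSCCC. DPP4 was 55.1-fold lower than in HuCCT1 and 669-fold lower than in YSCCC (adjusted p = 1.18e-05 against HuCCT1 and 8.04e-07 against YSCCC). VTCN1, the B7-H4 checkpoint ligand, stood at 0, 0.0450 and 0 CPM in KKU-100, 0.452, 2.16 and 2.94 CPM in HuCCT1 and 20.8, 18.5 and 13.3 CPM in YSCCC. The higher surface genes were MSLN, NCAM1, BCAM and LY6K. MSLN, which encodes mesothelin, stood at 171, 76.0 and 116 CPM in KKU-100, 34.0, 20.2 and 25.7 CPM in HuCCT1 and 0.775, 0.721 and 0.825 CPM in YSCCC. MSLN was 4.55-fold higher than in HuCCT1 and 157-fold higher than in YSCCC (adjusted p = 0.000127 against HuCCT1 and 2.79e-07 against YSCCC). NCAM1, the neural cell adhesion molecule, stood at 54.3, 13.02 and 43.3 CPM in KKU-100, 0.0821, 0.0941 and 0.207 CPM in HuCCT1 and 0.408, 0.303 and 0.610 CPM in YSCCC. NCAM1 was 288-fold higher than in HuCCT1 and 83.7-fold higher than in YSCCC (adjusted p = 5.55e-06 against HuCCT1 and 1.07e-05 against YSCCC). In the neural list NCAM1 and the granin SCG2 were the higher genes among 11 tested, and 0 were lower, or 1 without KKU-100 replicate 3. The higher genes of that list were 18.2% of those tested, beside 15.0% of all genes.

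Many cell cycle genes were lower in KKU-100. Of 38 tested cell cycle genes, 21 were lower and 0 higher, with a median of -2.33. Their summed level was 2241 CPM in KKU-100 replicate 1, 1180.4 CPM in replicate 2 and 1053 CPM in replicate 3, 5981 to 9007 CPM in HuCCT1, and 4415, 4360.1 and 1508 CPM in YSCCC, so YSCCC replicate 3 overlapped KKU-100. The count of lower genes was 8 without KKU-100 replicate 3, 11 without KKU-100 replicate 2 or YSCCC replicate 1, 12 without YSCCC replicate 2 and 28 without YSCCC replicate 3; 1 gene was higher without KKU-100 replicate 3. KIF20A, a mitotic kinesin, stood at 14.6, 1.35 and 1.69 CPM in KKU-100, 159, 134 and 271 CPM in HuCCT1 and 125, 106 and 24.4 CPM in YSCCC. KIF20A was lower than in HuCCT1 by a log2 fold change of -5.01 (SE 0.95, adjusted p = 0.00117) and lower than in YSCCC by a log2 fold change of -3.87 (SE 0.90, adjusted p = 0.00386). MCM4, a subunit of the replicative helicase, stood at 32.5, 31.1 and 32.7 CPM in KKU-100, 171, 325 and 374 CPM in HuCCT1 and 216, 259.6 and 59.9 CPM in YSCCC. MCM4 was 9.03-fold lower than in HuCCT1 and 5.56-fold lower than in YSCCC (adjusted p = 0.000306 against HuCCT1 and 0.00117 against YSCCC).

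**Figure D5:**
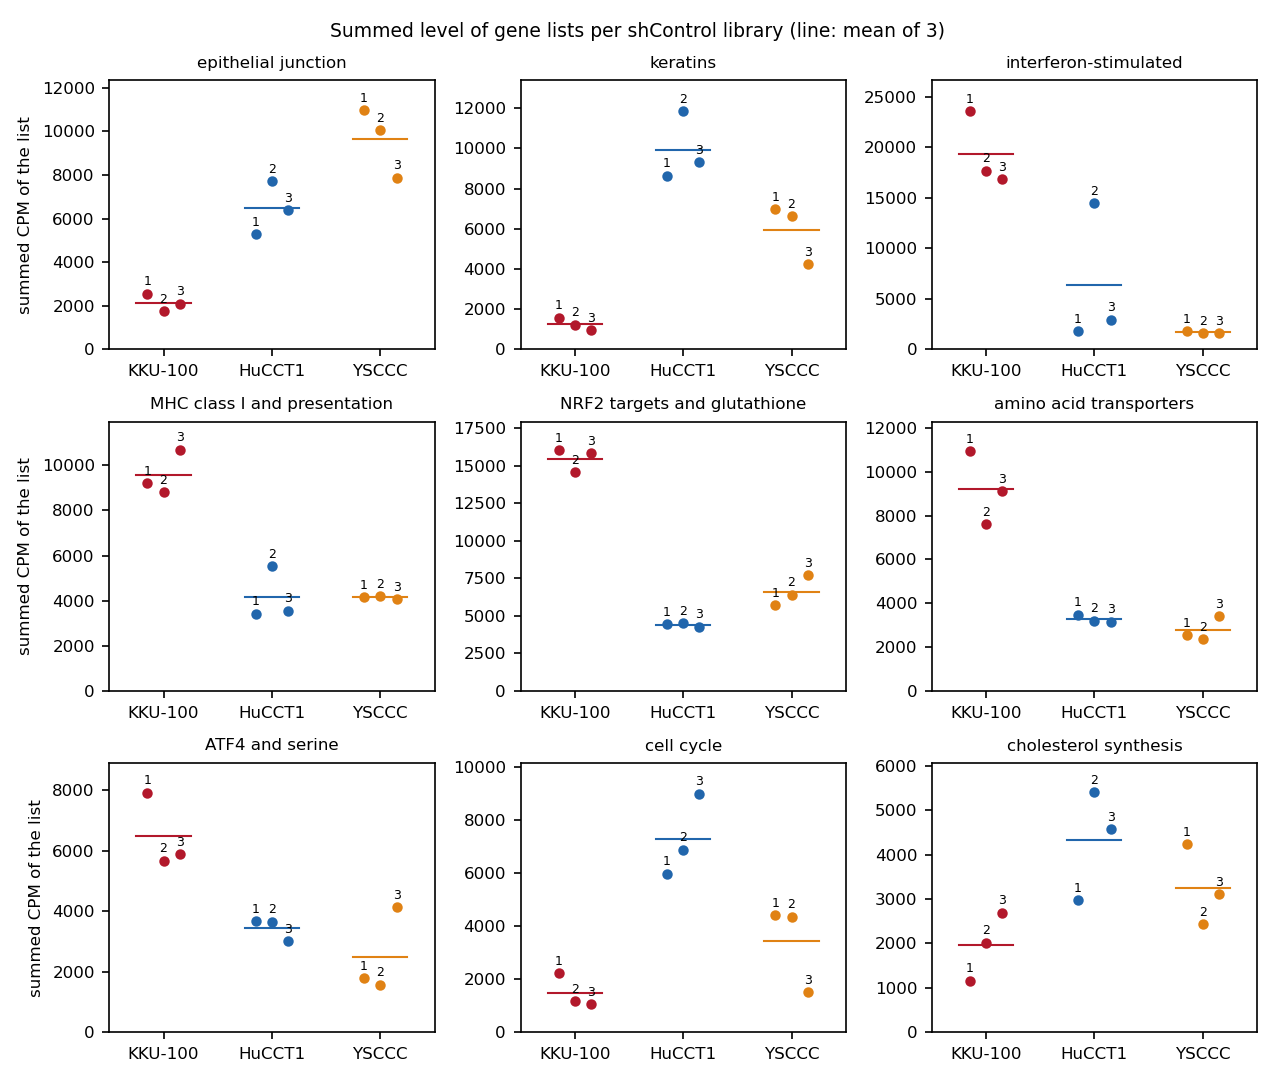
Summed CPM of 9 gene lists in each shControl library, with replicate numbers above the points and a line at the mean of 3. KKU-100 stands clear of both other lines for epithelial junction and keratin genes (lower) and for MHC class I, NRF2 and amino acid transporter genes (higher), while HuCCT1 replicate 2 is high in interferon-stimulated genes and YSCCC replicate 3 falls among the KKU-100 values for cell cycle genes.

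The same contrast in the 9 shRNF213 libraries gave 5988 markers of KKU-100, and 4732 genes were called with the same sign in both sets, 81.1% of the shControl markers and 79.0% of the shRNF213 markers. No gene was called in opposite directions. The libraries of both sets come from the same lines and media, so this repeats the contrast in other libraries of these lines and not in other lines. Of the named lists, epithelial junction had 28 lower genes in the shControl set and stayed within 25 to 29 over all settings tried, keratins within 9 to 11 and NRF2 targets, on the higher side, within 14 to 19. Cholesterol synthesis had 21 lower genes in the shRNF213 libraries against 10 in the shControl libraries, and cell cycle 13 against 21. ITGA6, ITGAV and TGFA, lower in the shControl libraries, were not lower than both other lines in the shRNF213 libraries.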

How the data were processed

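RNA-seq libraries of 3 cholangiocarcinoma lines with a control or an RNF213 hairpin were read from the authors' deposited tables, which give raw counts and TPM per gene; the counts were used for all tests and the deposited TPM only for levels compared between keratin genes. The submitters' processing notes name HTSeq 0.6.1p1 and StringTie 2.1.6, besides STAR 2.5.1b, Picard 1.139, DESeq2 1.34.0 and FastQC 0.11.9, and the build GRCh38. Neither the tool behind each column nor the strand setting was given in the sources used here. Without a strand setting, reads of overlapping and antisense genes are not separable, and near-identical genes can share reads.

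In R 4.3.3, edgeR 4.0.16 (TMM scaling, filterByExpr by line, glmQLFit and glmQLFTest) was fitted to the 9 shControl libraries with 1 mean per line, and p-values were adjusted over all 18010 genes tested by the Benjamini-Hochberg method. A marker passed an adjusted p of 0.05 against both other lines with the same sign. The filter could keep a gene with counts in 1 line alone. A gene nearly absent from both other lines could thus only be called higher in KKU-100. Sizes are pairwise; list medians use KKU-100 minus the mean of both other lines with equal weight. For a group without a count, a bound against a floor of 3 counts over the group replaces the fold, and groups with 1 to 3 counts get no fold. The script was tested on simulated data. Alternatives used limma 3.58.1 and DESeq2 1.42.0, other scaling and filters, a replicate block, the shRNF213 libraries, and libraries left out. Replicate numbers did not pair the lines: over 10307 genes, same-numbered libraries correlated in their deviations at -0.13 to -0.00 (KKU-100 and HuCCT1) and -0.02 to 0.06 (KKU-100 and YSCCC).

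Members and gene lists were chosen with earlier results of these data known. The text names the 20 higher and 20 lower markers with the largest smaller difference, a mean of at least 20 CPM on the higher side and no overlap, up to 6 markers per direction and list of the 43 lists (at least 5 CPM), defining lineage genes, and genes of regions. Other genes it names, such as ESRP2, OVOL2, CLDN4, OCLN, DSP, GATA3, NR2F2, FZD3, PLAU, TXNRD1, SRXN1, PGD, B2M and the genes that are off or on in KKU-100, were chosen after their values were seen. XIST and Y-linked genes were left out, and results for some other genes, and lists that rest on them, are not reported here. Promoters of 250 bases came from RefSeq (GRCh38.p14), matched by symbol for 12311 of the tested genes.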

Additional observations from a re-analysis of the deposited data

How the results depend on the processing

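The marker counts, 2704 higher and 3131 lower, stayed within 1.5 times under the other scalings, filters, tools and fits tried; a required difference of 2-fold from each line left 1703 higher genes. Leaving out 1 library gave 2309 to 3050 higher and 2742 to 3511 lower genes, and leaving out HuCCT1 replicate 2, YSCCC replicate 3 and KKU-100 replicate 1 together, an alternative chosen after seeing the data, gave 3177 and 3360. When replicate numbers entered the fit as a block, 2469 genes were higher and 2906 lower; the numbers do not pair the lines, so the block has no meaning in the design. Scaling by library totals alone moved the median log2 difference from YSCCC over all genes from -0.09 to -0.25, and the share of calls that were higher from 46.3% to 40.7%. Fitting each pair of lines alone, with 15225 genes tested, gave 2611 higher and 2485 lower genes, so 51.2% of calls were higher, and moved that median to 0.06; which direction held more calls thus depended on the fit.

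Of 348 markers that the naming rules or later additions took in, 299 kept their call under every alternative in which they were tested; over all pairs of a gene and an alternative, 7078 kept the call, 213 lost it and 3 changed sign. These 3 were in the shRNF213 libraries, where the smaller of both log2 differences was 0.10 for ITGA6, 0.11 for ITGAV and 0.090 for TGFA; the cause was not tested. Genes near 0 counts in a line have folds that depth limits, and with 3 cultures per line and 1 medium per line, line, culture history and medium cannot be told apart.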
